A study of Mus musculus with 8 samples.

Results

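Glycolysis and the response to low oxygen were examined in a murine spleen stromal cell line through 47 genes taken by symbol from a list, of which 44 had a row in the deposited table of 12589 genes. They comprise 17 glycolytic enzymes, 6 regulators of glycolytic flux, 5 genes of oxygen sensing, 15 hypoxia targets outside glycolysis and 4 genes of glycogen and glucose phosphate metabolism. The 3 genes without a row were Epas1 among the oxygen sensing genes and Ankrd37 and Car9 among the targets.

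Glycolysis splits glucose into pyruvate, and lactate dehydrogenase turns pyruvate into lactate when mitochondria do not take it up. Cells sense oxygen through prolyl hydroxylases of the EGLN family, which mark the alpha subunits of the hypoxia-inducible factor (HIF) for destruction while oxygen is present. Without oxygen HIF accumulates and binds short DNA motifs in promoters and enhancers, and many glycolytic genes are among its known targets, next to genes for mitophagy, pH control and secreted signals.

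The cells were of the line mSSC, labelled mSSC-YFP and described as spleen stromal cells, cultured in DMEM with fetal serum. Of the 8 samples, 4 received BMS493, an inhibitor of retinoic acid (RA) signaling, and 4 received its vehicle DMSO, for 48 h according to the labels. The methods of the study give 1 μM BMS493 for stromal cells. All samples come from this single line, and no genotype or oxygen level that differs between the groups is given in the labels. The labels number the cultures and do not say whether they were grown separately.

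The table holds, for each gene, the authors' mean of log2 normalized expression over all samples and 4 columns of their own comparison of BMS493 with DMSO, which were not used. Each culture's own values were not used here. The depth of each library is unknown, no spread between cultures can be given, and no value below is a difference between treatments. Every level that follows is the authors' mean over treated and control cultures together, with no SD. To compare genes with each other, the level of a gene was expressed per kilobase (kb) of its merged exons on the log2 scale, where a step of 1 is a doubling. The median of this level over the 12393 genes with a known exon length was 2.85. In bulk RNA, fewer cells that use a gene and less RNA per cell cannot be told apart.

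The label was checked against markers of cell types. All 9 stromal or fibroblast markers had a row (among them Pdgfra, Col1a1 and Thy1), with deposited mean log2 values of 5.24 to 13.3. No row was found for the 5 B cell, 2 T cell and 2 erythroid markers. Of the 3 endothelial markers Pecam1 and Kdr were listed, at mean log2 values of 0.47 to 2.83, and of the 4 macrophage markers Cd68, at 1.36. The epithelial marker Cdh1, the adhesion protein E-cadherin, was listed at a mean log2 of 8.03, while Epcam had no row. The part of Cdh1-expressing cells in the levels below was not tested.

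Some glycolytic enzymes were among the most abundant transcripts of these cells, and levels were uneven along the pathway. Pyruvate kinase (Pkm), aldolase A (Aldoa), lactate dehydrogenase A (Ldha) and triose-phosphate isomerase (Tpi1) together made up 81.2% of the summed linear per-kb level of the 17 enzymes. This share was taken per kb of merged exons only. Per 100-base window found in no other gene, Eno1 at a log2 level of 8.56 ranked above Ldha at 8.41 and Tpi1 at 8.26. The 17 enzymes held 0.381% of the summed linear per-kb level of all genes. Per kb of merged exons, 13 of 17 enzymes lay above the median of all genes, and 5 lay in the top 10%. Per kb of coding sequence, Hk2, Pgk1 and Ldhb fell below the median of all genes, at percentiles 45.8, 49.9 and 46.8. Without values of single cultures, neighbours in this order could not be told apart by their spread.

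Pkm, which makes ATP and pyruvate in the last step of glycolysis (chr9:59656368-59679375, GRCm38), had the highest level of all members, 8.42 on the log2 per-kb scale. That placed it at percentile 99.3 of all genes. Aldoa, which splits the phosphorylated sugar into trioses (chr7:126795234-126800751), followed at a log2 per-kb level of 7.54. Ldha, the subunit that favours the making of lactate (chr7:46841475-46855627), stood at 7.40 on the same log2 per-kb scale. Tpi1, which interconverts the trioses (chr6:124810586-124814296), stood at a log2 per-kb level of 7.38. All 4 genes were at or above percentile 98.1 of all genes.

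The other steps were lower. Enolase 1 (Eno1, chr4:150236721-150248879) had a log2 per-kb level of 5.79 and glucose-6-phosphate isomerase (Gpi1) one of 4.86. The hexokinases, which trap glucose in the cell by phosphorylating it, stood at log2 per-kb levels of 4.36 for Hk1 and 3.24 for Hk2. Hk1 was thus 2.17-fold above Hk2, a log2 difference of 1.12 per kb of merged exons. The difference was 2.23 per kb of the principal transcript and 2.25 per 100-base window found in no other gene. Neither gene shares such a window with another gene. The merged exons of Hk1 hold 8532 bases and its principal transcript 3639. Hk2 lay at percentile 57.9 of all genes per kb of merged exons, and at percentile 45.8 per kb of coding sequence and 46.9 per kb of the principal transcript. Of the phosphofructokinase subunits, which carry out the main committed step, the muscle type Pfkm stood at a log2 per-kb level of 4.33, the liver type Pfkl at 3.77 and the platelet type Pfkp at 1.61. Pfkl was 4.46-fold above Pfkp. The order of Pfkm and Pfkl turned with the measure of length: Pfkm was higher by 0.56 log2 per kb of merged exons, whereas Pfkm minus Pfkl was -0.061 per kb of the longest transcript.

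At the aldolase and enolase steps the ubiquitous form was far above the brain or neuronal form. Aldoa exceeded the brain aldolase Aldoc 488-fold per kb, with Aldoc at a log2 per-kb level of -1.39, the lowest of the members. The deposited mean log2 of Aldoc was 0.31, near the lowest of all genes at -0.58, so the size of this ratio is uncertain. Eno1 exceeded the neuronal enolase Eno2 17.6-fold per kb, with Eno2 at a log2 level of 1.65, while the muscle enolase Eno3, not among the 47 genes, stood at a log2 per-kb level of 5.53. Ldha exceeded Ldhb, the subunit that prevails in oxidative tissues, 12.5-fold per kb, with Ldhb at a log2 level of 3.76. These 3 orders, and those of Hk1 over Hk2 and Pfkl over Pfkp, were the same under all 7 measures of length that were tried. The sizes were not: over these measures the log2 difference was 8.56 to 9.89 for Aldoa over Aldoc, 4.14 to 6.65 for Eno1 over Eno2, 3.64 to 4.72 for Ldha over Ldhb and 1.15 to 2.37 for Pfkl over Pfkp.

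**Figure D1:**
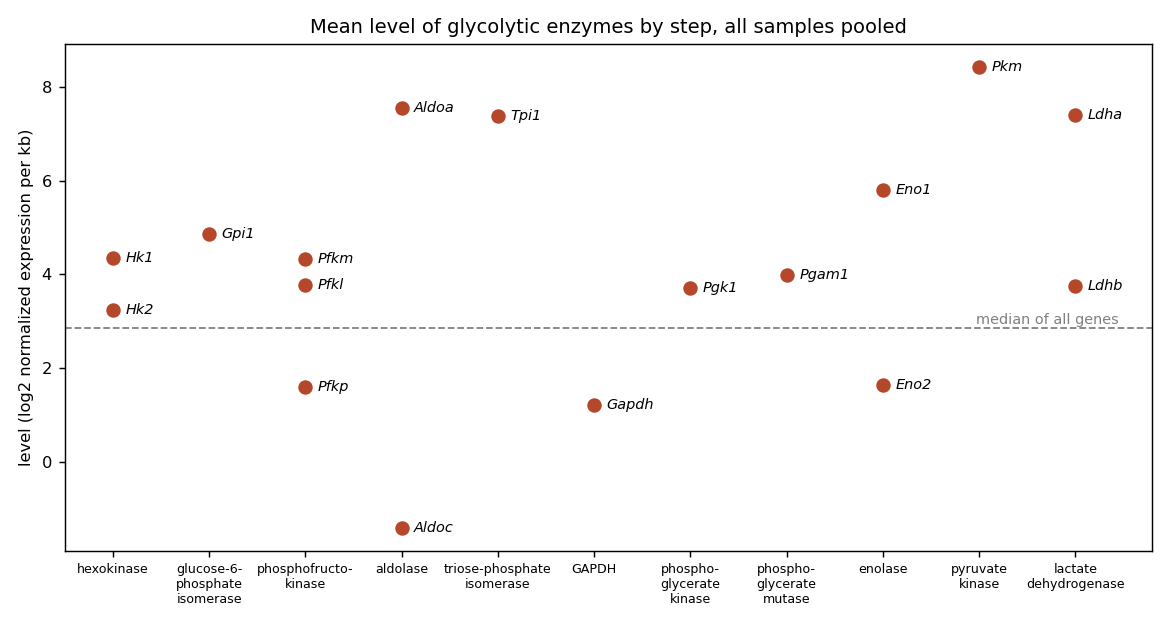
Levels of the 17 glycolytic enzymes by reaction step (x axis, in pathway order). The y axis is the authors' mean log2 normalized expression over all samples, per kb of merged exons, each point is a gene, and the dashed line is the median of all genes (2.85). Pkm, Aldoa, Ldha and Tpi1 lie above 7, while Gapdh, the only gene drawn for its step, lies at 1.23. Per 100-base window found in no other gene, not drawn here, Gapdh stood at 5.85.

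Per kb of merged exons, deposited levels were not high at every step. Gapdh, the dehydrogenase between triose phosphate isomerization and the first ATP-making step (chr6:125161715-125166467), had a log2 per-kb level of 1.23, at percentile 22.4 of all genes. The next steps lay above the median of all genes, at percentiles 67.2 and 72.4. With no length correction the same steps lay below it, at percentiles 47.2 and 49.4. Phosphoglycerate kinase (Pgk1, chrX:106187100-106203699) stood at a log2 per-kb level of 3.70 and phosphoglycerate mutase (Pgam1, chr19:41911923-41918660) at 4.00. Gapdh, between the neighbouring steps of Tpi1 and Pgk1 in the pathway, thus ranked 16 of 17 among the enzymes by this measure. Per 100-base window found in no other gene it had a log2 level of 5.85, at percentile 87.1 and rank 7. Its place is therefore uncertain.

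These genes differ from most others in how much of their transcript recurs elsewhere in the annotation. The study's libraries were read for 100 cycles from one end, and only uniquely mapped reads were counted. The principal transcript of each gene was therefore divided into all its windows of 100 bases, and each window was searched, without mismatches, in the annotated transcripts of genes at other loci. Of the windows of Gapdh, 85.8% were found in another gene, and of those in its coding part 100%. The other genes numbered 84, of which 82 are annotated as pseudogenes. For Pgk1 the share was 67.0% of all windows and 100% of coding windows, from 3 pseudogenes. For Eno1 it was 59.0% and 69.3%, and for Pgam1 39.7% and 100%. Among all 12375 genes with a principal transcript, 84.5% shared no window and 8.11% shared over 10% of their windows, against 4 of 17 enzymes (23.5%) and 5 of 44 members (11.4%).

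Examples of such coding windows are printed to show what a read from these genes would hold, each 5′ to 3′ in the direction of the gene (GRCm38 coordinates, GENCODE M21 transcripts). The window of Gapdh is found letter for letter in 37 other genes and that of Pgam1 in 2. The window of Aldoa is printed for contrast, since none of its windows occurs in another gene.
Gapdh, chr6:125162901-125163000, minus strand: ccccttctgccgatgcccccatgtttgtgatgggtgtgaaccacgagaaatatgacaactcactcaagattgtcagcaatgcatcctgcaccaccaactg
Pgam1, chr19:41917606-41917705, plus strand: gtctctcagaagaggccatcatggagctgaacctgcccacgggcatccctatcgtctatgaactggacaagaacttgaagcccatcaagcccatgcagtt
Aldoa, chr7:126797656-126797755, minus strand: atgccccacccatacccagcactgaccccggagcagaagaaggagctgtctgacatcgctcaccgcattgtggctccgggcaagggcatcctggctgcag

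**Figure D2:**
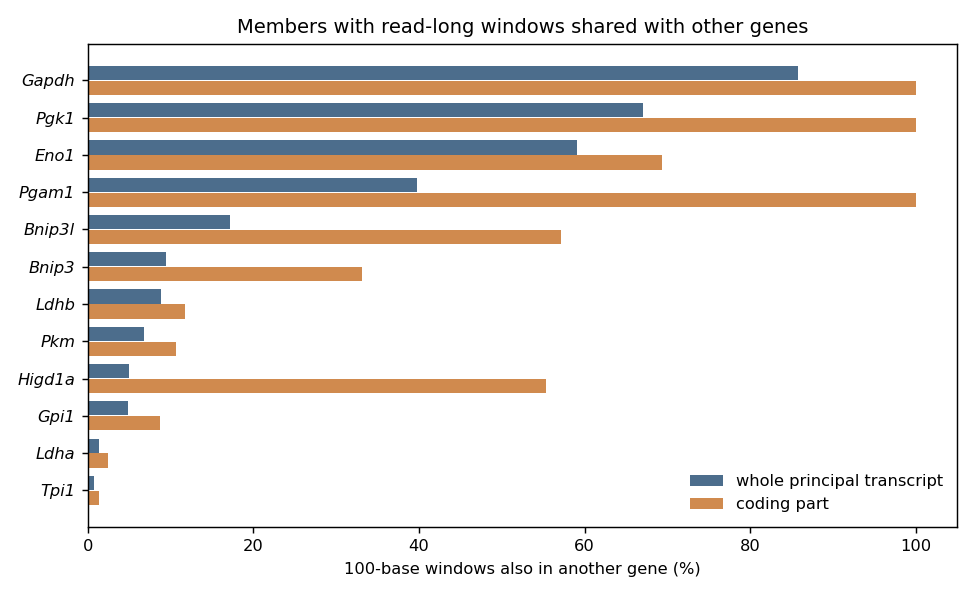
Percent of 100-base windows that also occur in the transcript of another gene (x axis), for the 12 members with any (y axis). Blue bars count the whole principal transcript and orange bars its coding part. Gapdh, Pgk1 and Pgam1 reach 100% in the coding part.

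When the level was taken per window found in no other gene in place of per kb of the principal transcript, values changed by construction with the share of shared windows, since the same deposited mean was divided by fewer positions. This shows how far the length chosen could move each gene and is no separate measurement. Gapdh went from a log2 level of 2.93 to 5.85, from percentile 39.0 to 87.1 of all genes and from rank 15 to rank 7 of the 17 enzymes. Pgk1 went from a log2 level of 4.00 to 5.68 and from rank 12 to 8. Eno1 went from a log2 level of 7.20 to 8.56 and from rank 5 to 3, and Pgam1 from 4.16 to 4.97 at rank 10 under both measures. Pkm stayed at rank 1 and Aldoa at rank 2. Gapdh, widely used as a reference transcript, thus stood below the median of all genes or well above it, depending on which bases were counted as able to yield a unique read. Whether shared windows set its deposited mean was not tested, since reads were not analysed here.

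**Figure D3:**
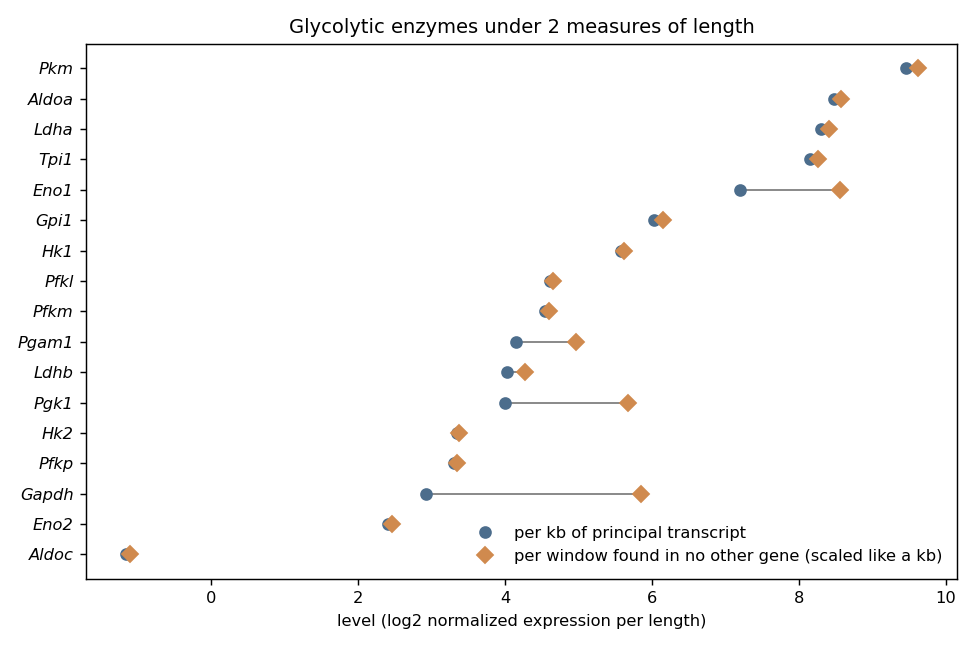
Level of each glycolytic enzyme (x axis, authors' mean log2 normalized expression per length) per kb of the principal transcript (blue circles) and per window of 100 bases found in no other gene, scaled like a kb (orange diamonds). The grey lines join the values of 1 gene, and Gapdh has the longest, from 2.93 to 5.85.

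Some pseudogenes that share these windows had rows of their own. Pgam1-ps2 was listed at a mean log2 of 4.39, against 4.98 for Pgam1, and Gm4735 at 4.06, against 8.22 for Eno1. Gm1840, which shares windows with Gpi1, was listed at 5.86, against 7.55 for Gpi1. For Gapdh, 3 of the 84 genes had a row, the highest being Gm12070 at a mean log2 of 1.82, against 3.27 for Gapdh. None of the genes that share windows with Pgk1, Pkm or Tpi1 had a row. Only uniquely mapped reads were counted, so reads from shared bases may be missing from these rows and those of their parent genes. All these rows are therefore uncertain, and the extent was not tested.

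Regulators of flux decide how much fructose bisphosphate is made and whether pyruvate enters mitochondria, and as a group they were lower than the enzymes. Per kb of merged exons their median log2 level was 2.00, and 2 of 6 lay above the median of all genes. Per kb of coding sequence, Pdk1 also lay above it, at percentile 53.8. The pyruvate dehydrogenase kinases, which switch off the entry of pyruvate into the citric acid cycle, were led by Pdk3 at a log2 per-kb level of 4.27. Pdk1, a known HIF target, followed at 2.16, Pdk4 at 1.85 and Pdk2 at 1.64 on the same log2 per-kb scale. Pdk3 was 4.33-fold above Pdk1 per kb, a log2 difference of 2.11 that ranged from 0.51 with no length correction to that value over 7 measures of length. The order of Pdk4 and Pdk2 turned with the measure of length, with Pdk4 minus Pdk2 at 0.20 log2 per kb of merged exons and -0.28 per kb of the longest transcript. Of the enzymes that set the level of the phosphofructokinase activator fructose 2,6-bisphosphate, Pfkfb3 stood at a log2 per-kb level of 3.01, 4.31-fold above Pfkfb4 at 0.91, with a log2 difference of 2.11 to 2.74 over the measures of length.

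Oxygen sensing genes were listed at high levels, with 3 of 4 above the median of all genes. Hif1a, the alpha subunit that oxygen destabilizes (chr12:73901375-73947530), had a log2 per-kb level of 5.05, at percentile 86.9. Its protein is controlled after translation, so its RNA level does not give the amount of the factor. Epas1, which encodes the other main alpha subunit, had no row. The hydroxylases Egln1 and Egln2 stood at log2 per-kb levels of 4.37 and 4.25, an order that turned per kb of the longest transcript, with Egln1 minus Egln2 at -0.29 log2. Egln3, itself a known HIF target, was lower at a log2 per-kb level of 2.32, and Egln2 exceeded it 3.81-fold, with a log2 difference of 1.19 to 2.36 over the measures of length.

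The hypoxia targets outside glycolysis spread widely, and 6 of 13 lay above the median of all genes per kb of merged exons. Ddit4, an inhibitor of the growth kinase complex mTORC1 (chr10:59949669-59951834), led them with a log2 per-kb level of 4.92, at percentile 85.5. The transcriptional repressor Bhlhe40 stood at a log2 per-kb level of 4.48, 9.73-fold above its paralog Bhlhe41 at 1.20, with a log2 difference of 2.77 to 3.77 over the measures of length. Ero1l, an oxidase that serves disulfide formation in the endoplasmic reticulum, stood at 3.81 on the log2 per-kb scale, the histone demethylase Kdm3a at 3.50 and the stress-responsive Ndrg1 at 3.24. These 5 genes all lay above the median of all genes.

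The mitophagy receptors Bnip3l and Bnip3 stood at log2 per-kb levels of 3.64 and 2.35, a ratio of 2.44, with a log2 difference of 1.17 to 2.06 over the measures of length. Both share windows with pseudogenes: 17.2% of the windows of Bnip3l and 9.41% of those of Bnip3. Mxi1, an antagonist of Myc, stood at a log2 per-kb level of 2.33, the mitochondrial protein gene Higd1a at 1.82 and the lipoprotein receptor Vldlr at 1.63. Per kb of coding sequence, Mxi1 and Higd1a lay above the median of all genes, at percentiles 64.8 and 62.7. Higd1a shared 55.4% of its coding windows with another gene. The secreted vasodilator peptide adrenomedullin (Adm) was listed at a log2 per-kb level of 1.23 and the carbonic anhydrase Car12, which acts on extracellular pH, at -1.31. Car12 lay at percentile 3.58 of all genes, and the related Car9 had no row. None of the 13 targets with a row reached the top 10% of all genes. This holds for the list only: P4ha1, a known HIF target given below with the wider pathway, lay at percentile 98.4.

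Genes of glycogen and glucose phosphate metabolism lay between, with a median log2 per-kb level of 3.65. Glycogen synthase 1 (Gys1) stood at a log2 per-kb level of 3.28 and the branching enzyme Gbe1 at 1.41. The phosphoglucomutases Pgm1 and Pgm2 were listed at mean log2 values of 5.56 and 5.49. Their symbols have been exchanged between a gene on chr4 and a gene on chr5 in mouse nomenclature, and which locus stands behind which row is uncertain. By either reading their log2 per-kb levels lay between 3.94 and 4.18.

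Glycolytic enzymes were compared with the listed hypoxia targets outside glycolysis. The difference depends on that list, which leaves out other known HIF targets such as P4ha1. The median log2 per-kb level was 4.00 for the 17 enzymes and 2.35 for the 13 targets, a difference of 1.65 or a 3.14-fold ratio. The middle range of the enzymes, from the lower to the upper quartile, was 3.24 to 5.79 on the log2 per-kb scale and that of the targets 1.63 to 3.64. The groups overlapped: 5 enzymes lay above Ddit4, the highest of the 13 targets, whereas none of these targets lay below Aldoc, the lowest enzyme. The listed targets Ankrd37 and Car9 had no row, so where they would lie is unknown. In all, 13 of 17 enzymes were above the median target and 2 of 13 targets, Ddit4 and Bhlhe40, above the median enzyme.

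The size of this difference depended on how length was counted. It was 0.97 log2 with no length correction, 0.67 per kb of the principal transcript and 0.11 per kb of coding sequence, with medians of 5.28 for enzymes and 5.17 for targets in the last case. With only the highest paralog of each of the 11 steps it was 2.52 log2, but this picks enzymes by the level compared and keeps all targets. All paralogs dropped in this way lay below the median enzyme, so the difference rose. The enzymes were higher in each of the settings that change the length, but genes are not replicates and no test was made.

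**Figure D4:**
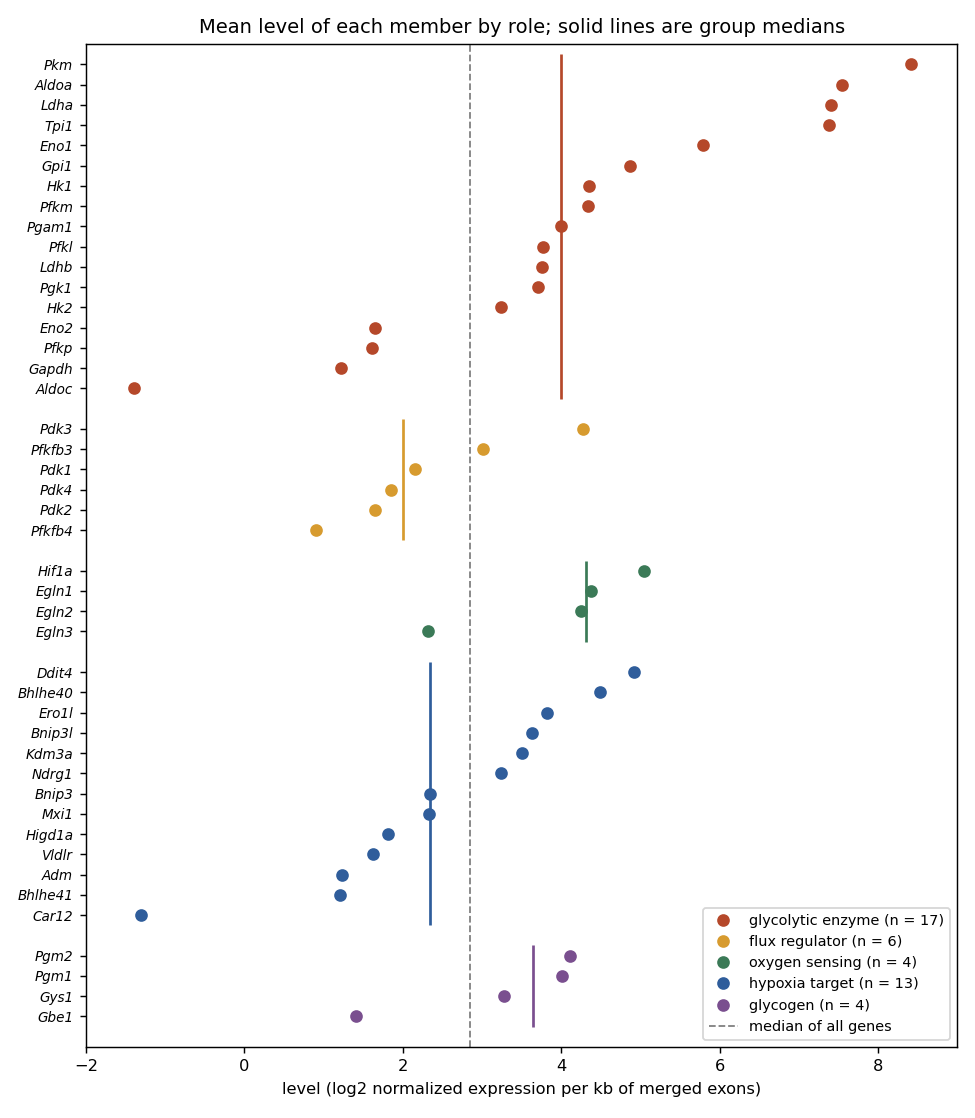
Level of each of the 44 listed members (x axis, authors' mean log2 normalized expression over all samples per kb of merged exons), sorted within the 5 roles (colors). Solid vertical lines are group medians (4.00 for enzymes, 2.35 for targets) and the dashed line is the median of all genes (2.85). The enzymes span -1.39 to 8.42 and the targets -1.31 to 4.92.

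The wider pathway was represented by 51 other genes, of which 36 had a row. Their median log2 per-kb level was 3.14, and 19 of 36 lay above the median of all genes. The highest was P4ha1, a prolyl hydroxylase of collagen and a known HIF target, at a log2 per-kb level of 7.56. It was followed by Fam162a at 5.94, Pdha1, the pyruvate dehydrogenase subunit on which the Pdk kinases act, at 5.92, the muscle enolase Eno3 at 5.53 and the glycogen phosphorylase Pygb at 5.43 on the same scale. At the low end, named here after their values were seen, were Slc2a3 at -1.95, Pgm5 at -1.58 and Slc16a3 at -0.94 on the log2 per-kb scale. Ppp1r3c stood at -0.89, Ak4 at -0.75 and Stc2 at -0.60. Slc2a3 is a glucose transporter and Slc16a3 a lactate transporter. Their relatives were higher, with Slc2a1 at a log2 per-kb level of 4.72 (percentile 83.1) and Slc16a1 at 4.62 (percentile 81.8). The wider pathway thus spanned -1.95 to 7.56, beside -1.39 to 8.42 for the members.

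Promoters were searched for the core to which HIF binds, ACGTG or GCGTG on either strand, in the RefSeq window from 250 bases before to 50 bases after the start of transcription (GRCm38). A promoter was found for 41 of 44 members and for 9395 genes with a row. The core was present in 33 of 41 members (80.5%) and in 64.6% of the 9395 genes. By role it was present in 13 of 17 enzymes, 6 of 6 flux regulators, 4 of 4 oxygen sensing genes, 8 of 10 targets and 2 of 4 glycogen genes. With ACGTG alone the shares were 56.1% of members and 26.3% of the 9395 genes, 8 of 17 for enzymes and 6 of 10 for targets. The median number of CpG dinucleotides in these windows, which the core contains, was 21 in members and 22 in all 9395. A match to these letters describes the window and does not show that HIF binds it.

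Stretches of 4 promoters are printed with the cores in capitals, 160 bases each, 5′ to 3′ in the direction of the gene. Ldha, Pgk1 and Bnip3 are known HIF targets, and Eno2 is shown as an enzyme gene whose window holds no core. The absence of a core in this window does not show that Eno2 is no HIF target. In Ldha and Bnip3 the palindrome CACGTG counts on both strands, so that each stretch holds 5 matches. Ldha has 2 promoter windows in RefSeq, and the stretch is from that with more cores. The window counted above and drawn by position is the other, which holds 2 matches to GCGTG and none to ACGTG.
Ldha, chr7:46845644-46845803, plus strand: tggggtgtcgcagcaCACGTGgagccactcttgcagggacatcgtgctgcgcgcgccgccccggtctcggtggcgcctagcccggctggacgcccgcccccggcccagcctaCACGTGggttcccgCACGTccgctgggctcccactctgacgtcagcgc
Pgk1, chrX:106186940-106187099, plus strand: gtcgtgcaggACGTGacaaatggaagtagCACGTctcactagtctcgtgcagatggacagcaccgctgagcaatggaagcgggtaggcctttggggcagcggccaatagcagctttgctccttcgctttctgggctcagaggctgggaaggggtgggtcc
Bnip3, chr7:138909520-138909679, minus strand: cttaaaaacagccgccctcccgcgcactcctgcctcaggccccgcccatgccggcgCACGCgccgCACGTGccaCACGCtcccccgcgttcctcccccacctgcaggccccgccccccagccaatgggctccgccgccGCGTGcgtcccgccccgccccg
Eno2, chr6:124769674-124769833, minus strand: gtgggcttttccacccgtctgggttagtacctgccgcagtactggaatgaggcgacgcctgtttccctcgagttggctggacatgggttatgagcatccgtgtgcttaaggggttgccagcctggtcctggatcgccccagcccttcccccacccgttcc

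Members whose window held no core spanned log2 per-kb levels of -1.31 to 8.42. The 4 enzymes without one were Pkm, at a log2 per-kb level of 8.42, Tpi1 at 7.38, Gpi1 at 4.86 and Eno2 at 1.65. The 2 targets without one were Car12 and Vldlr, at log2 per-kb levels of -1.31 and 1.63. The glycogen genes without one were Gys1 at 3.28 and Gbe1 at 1.41. The number of cores and the level were not set against each other in a test. By position, 9 members lie on chr6 and 7 on chr7. Eno2, Tpi1 and Gapdh lie within 406 kb of each other (chr6:124760053-125166467), at log2 per-kb levels of 1.65, 7.38 and 1.23, so neighbours on the chromosome were listed at very different levels. The place of Gapdh depended on the measure of length. Per 100-base window found in no other gene the log2 levels were 2.46 for Eno2, 8.26 for Tpi1 and 5.85 for Gapdh.

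**Figure D5:**
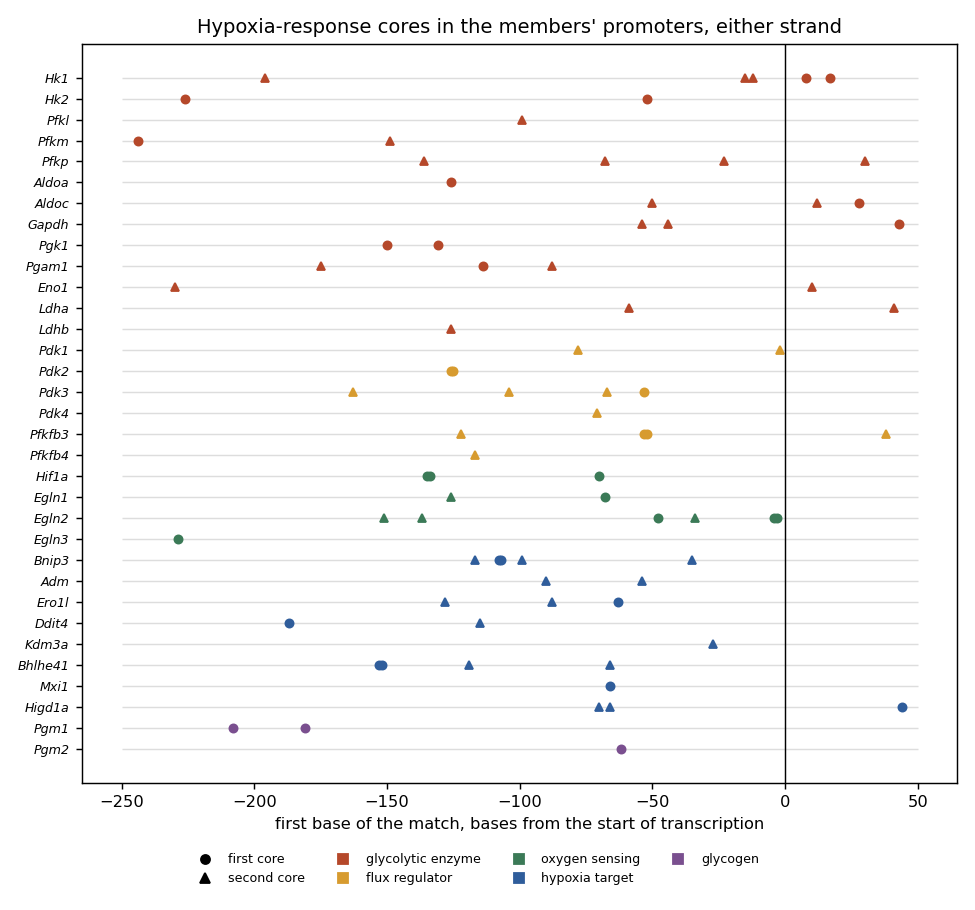
Position of each hypoxia-response core (x axis, bases from the start of transcription, either strand) in the promoter of the members that hold one (y axis, colors by role). Circles are ACGTG and triangles GCGTG, and for genes with several promoter windows that nearest to the start of the principal transcript is drawn. Cores lie in 33 of 41 promoters and on both sides of the start.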

How the data were processed

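RNA of 8 cultures of the mSSC line (4 DMSO, 4 BMS493) was sequenced. According to the methods, the libraries were stranded and single-read. STAR 2.3.0e placed the reads on mm10, uniquely mapped reads were counted on Ensembl genes (release 85) and a weighted trimmed mean of M-values was used for scaling. The protocol in the labels describes amplification for arrays and qPCR instead. The authors deposited 1 table with decimal commas: each gene's log2 normalized expression averaged over the samples, and 4 columns of their comparison (log2 fold change, t, p and adjusted p), which were not used. The unit of the first column is log2, and 2 raised to it sums to 989369 over 12589 genes. Depth per library is unknown.

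The level of a gene is the mean log2 minus log2 of the kb of its merged exons in GENCODE M21 (11789 genes matched by symbol, 604 by an older symbol, 98.4% with a length). Ero1l is Ero1a in RefSeq. Of the annotated genes with 1 symbol, that with more exonic bases was used. Windows of 100 bases were compared exactly, on the transcript strand, so shares are lower bounds. This step was tested on simulated data and recovered 245 of 245 genes. Python 3.11.15, numpy 2.4.6, pandas 2.3.3, scipy 1.17.1 and matplotlib 3.10.9 were used. All members with a row are named, and of the other pathway genes the 5 highest. The lowest of these other genes and the transporters Slc2a1 and Slc16a1 were added after the values were seen. The members and lists were chosen with earlier results of these data known. Other lengths, a filter on low means, other groupings and other motif definitions were tried as alternatives. A test of BMS493 against DMSO had been planned for values of single cultures and was not made.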

Additional observations from a re-analysis of the deposited data

How the results depend on the processing

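The difference of medians between enzymes and targets (1.65 log2 per kb of merged exons) was positive under all 11 alternatives. The filter on low means drops Aldoc, the lowest enzyme, and the highest paralog per step drops only enzymes below their median. Both drop no target, so both raised the difference. It was 1.78 per kb of the longest transcript, 0.11 of coding length and 0.97 with no length correction. It was 1.82 for members with a mean log2 of at least 1 and 2.52 with the highest paralog per step. It was 1.71 without genes that have pseudogenes named after them, and 1.66 with Pdk1, Pfkfb3, Pfkfb4 and Egln3 as targets. Among alternatives chosen after seeing the data it was 0.67 per kb of the principal transcript, 1.68 and 1.69 per window of 100 or 50 bases found in no other gene, and 1.99 without members with over 10% of windows shared. Per-window levels rise by construction with this share, which exceeded 10% in 4 of 17 enzymes and 1 of 13 targets. Leaving these members out dropped Gapdh and Pgk1 below the enzyme median, Pgam1 at it and Eno1 above it. It also dropped Bnip3l, above the target median. None of these settings is a separate measurement. Of 14 pairs of paralogs, 11 kept their order under all 7 measures of length. Pfkm minus Pfkl (0.56) turned to -0.061 (longest and principal transcript), -0.44 (coding, none), -0.050 (100-base windows) and -0.056 (50-base windows). Pdk4 minus Pdk2 (0.20) turned to -0.28, -0.28, -0.30 and -0.27 for longest, principal, 100-base and 50-base. Egln1 minus Egln2 (0.12) turned to -0.29, -0.29, -0.32 and -0.30. The cause was not tested. The share of members with the core (80.5%) was 56.1% with ACGTG alone, 78.0% outside CACGTG and 82.9% over any promoter window, beside 64.6%, 26.3%, 61.0% and 68.7% of all genes with a promoter, the last an alternative added later. No paired analysis was possible because only a mean over all cultures was used. Leaving out cultures and count tools were not run either. Windows that are unique in the genome were not run because no genome was used here. Depth limits could not be given.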
